A study of Mus musculus with 4 samples.

Results

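LTR retrotransposons are mobile elements flanked by long terminal repeats (LTRs), and the LTR regions described here are accessible chromatin regions whose centre lies in such an element. A region was included when its annotation in the deposited table, on chromosomes 1 to 19 and X, gave the repeat class LTR. This rule took 637 of the 29121 regions in the table, a share of 2.19%, and it used no count. Most LTR retrotransposons of the mouse descend from retroviruses that entered the germline. The terminal repeat carries a promoter and enhancer sequences, and the internal part (names ending in "-int") codes for viral proteins where it is intact. In most mouse cells they are kept silent by DNA methylation and by repressive histone marks that KRAB zinc-finger proteins bring to them, and some terminal repeats have been taken up as enhancers or promoters of host genes.

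Chromatin accessibility was measured by ATAC-seq, in which a transposase cuts open DNA, in neurospheres from the hippocampus of newborn (P0) C57BL/6 mice. Neurospheres are floating clusters of neural progenitor cells, cultured here for 7 days with FGF-2 and EGF at 20 ng/ml each. The 2 Fgf13cko libraries carried hGFAPCre and a floxed Fgf13 allele (Fgf13 flox/y), and the 2 control libraries carried hGFAPCre with an intact Fgf13 (Fgf13+/y), so both groups carried the Cre transgene, whose promoter is active in radial glia and their progeny. Fgf13 is an X-linked gene for an intracellular FGF family protein. Each mouse gave cells for 2 wells. It is not stated if both libraries of a genotype go back to different animals, and p-values therefore measure a spread between libraries that may be technical in part.

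The Fgf13cko libraries held 16.8 and 13.1 M tags, and the control libraries held 24.9 and 26.0 M. Mitochondrial regions took 9.54% and 9.19% of all tags in Fgf13cko, against 23.4% and 27.0% in controls, and the nuclear regions together held 2.55 and 2.63 M tags in Fgf13cko and 2.78 and 3.25 M in controls. Each region had to have a peak in all 4 libraries to be in the table, so an LTR open in 1 group only was not analysed here. The 2 regions closest to a start site of Fgf13 had adjusted p-values of 0.705 and 0.960. They do not test the deletion, whose position the labels do not give. The promoters of all 8 listed markers of neural stem cells and radial glia were among the regions, as were 3 of 4 forebrain markers, 3 of 4 neuronal, 2 of 4 astrocyte, 3 of 4 oligodendrocyte-lineage and 2 of 4 meningeal ones. Only 1 of 5 microglial and 0 of 3 endothelial marker promoters were in the table.

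In the RefSeq promoter table for GRCm38.p6, which reaches from 250 bases before to 50 bases after each start, 32 of the 637 LTR regions overlapped a promoter window, and 23 of these were copies of 1 element, RMER17B, inside a cluster of zinc-finger genes on chromosome 2. Of these, promoters in 5 RMER17B regions are given here because the promoters resemble each other closely while the tag counts of their regions differ widely. Capitals mark bases that lie in a 50-base run found at another place among the promoters of the same table, and lower case marks bases in no such run. The first 2 come from regions with almost no tags and the other 3 from regions with between 329.5 and 773 tags over the 4 libraries. The window holds the start of the gene and ends 50 bases after it. At 24 RMER17B regions the centre, which gave the region its repeat name, lay 146 to 387 bp downstream of a start. Whether the repeat itself reaches any of the window was not determined.
Gm14440, chr2:175274875-175275174, plus strand: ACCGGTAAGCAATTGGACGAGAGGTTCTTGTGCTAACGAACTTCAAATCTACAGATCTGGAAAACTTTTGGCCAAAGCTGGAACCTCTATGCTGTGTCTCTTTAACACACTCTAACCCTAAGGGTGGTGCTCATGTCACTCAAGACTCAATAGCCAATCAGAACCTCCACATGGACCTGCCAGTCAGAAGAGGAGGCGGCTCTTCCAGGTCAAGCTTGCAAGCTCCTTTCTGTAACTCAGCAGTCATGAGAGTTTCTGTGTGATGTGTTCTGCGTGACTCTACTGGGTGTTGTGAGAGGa
2210418O10Rik, chr2:176226315-176226614, plus strand: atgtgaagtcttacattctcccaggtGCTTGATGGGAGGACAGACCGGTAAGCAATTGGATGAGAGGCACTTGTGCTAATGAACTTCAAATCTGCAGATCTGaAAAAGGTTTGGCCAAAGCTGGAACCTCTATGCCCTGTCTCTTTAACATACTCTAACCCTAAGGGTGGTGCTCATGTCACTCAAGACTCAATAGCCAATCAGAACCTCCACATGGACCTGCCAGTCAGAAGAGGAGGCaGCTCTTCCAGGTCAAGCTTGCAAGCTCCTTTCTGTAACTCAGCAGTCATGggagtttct
Gm14403, chr2:177497976-177498275, plus strand: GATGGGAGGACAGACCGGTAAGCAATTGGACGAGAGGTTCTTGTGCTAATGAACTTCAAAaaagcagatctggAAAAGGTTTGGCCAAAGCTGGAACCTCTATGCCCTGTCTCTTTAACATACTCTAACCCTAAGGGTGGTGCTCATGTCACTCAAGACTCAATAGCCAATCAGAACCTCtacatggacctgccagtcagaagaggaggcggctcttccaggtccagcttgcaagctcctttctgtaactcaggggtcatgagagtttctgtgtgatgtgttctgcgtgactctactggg
Zfp971, chr2:178023034-178023333, plus strand: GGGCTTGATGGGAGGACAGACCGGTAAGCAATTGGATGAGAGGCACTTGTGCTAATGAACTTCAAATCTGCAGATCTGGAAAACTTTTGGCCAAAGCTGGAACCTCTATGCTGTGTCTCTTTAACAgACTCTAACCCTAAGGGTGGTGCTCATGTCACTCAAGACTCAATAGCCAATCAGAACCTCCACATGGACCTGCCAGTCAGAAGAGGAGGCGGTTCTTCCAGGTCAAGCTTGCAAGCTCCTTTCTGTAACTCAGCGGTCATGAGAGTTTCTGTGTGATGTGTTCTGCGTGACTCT
Zfp970, chr2:177464492-177464791, plus strand: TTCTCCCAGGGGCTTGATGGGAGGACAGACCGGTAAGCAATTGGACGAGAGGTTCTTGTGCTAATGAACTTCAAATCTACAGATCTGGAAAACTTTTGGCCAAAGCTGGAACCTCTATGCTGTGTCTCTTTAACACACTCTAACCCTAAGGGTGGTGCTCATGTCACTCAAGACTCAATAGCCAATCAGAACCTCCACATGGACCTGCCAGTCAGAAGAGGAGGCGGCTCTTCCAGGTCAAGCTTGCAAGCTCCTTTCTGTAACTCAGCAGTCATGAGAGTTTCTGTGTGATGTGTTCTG

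The other 9 promoter windows in LTR regions all belonged to long noncoding RNAs. A pair of them is given here. One was chosen because its region rose in Fgf13cko. The other has a region centred in an intracisternal A particle (IAP) terminal repeat, a young and tightly silenced element type in mouse. The element named with each sequence is that of the region's centre. Whether it reaches the promoter window was not determined, and 240 bases of the Gm41545 window lie inside the region. Capitals mark motif matches, which were a SOX motif (ACAATG) in Gm41545 and an E-box (CAGCTG) in Gm7967, on either strand.
Gm41545, in RLTR31D_MM (ERVK), chr17:23925307-23925606, minus strand: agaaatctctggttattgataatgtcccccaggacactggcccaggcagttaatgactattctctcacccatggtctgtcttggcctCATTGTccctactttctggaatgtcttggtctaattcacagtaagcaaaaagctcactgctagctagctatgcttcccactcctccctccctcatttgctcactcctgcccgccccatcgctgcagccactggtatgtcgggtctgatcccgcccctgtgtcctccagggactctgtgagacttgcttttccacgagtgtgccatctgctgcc
Gm7967, in IAP1-MM_LTR (ERVK), chr1:98589267-98589566, plus strand: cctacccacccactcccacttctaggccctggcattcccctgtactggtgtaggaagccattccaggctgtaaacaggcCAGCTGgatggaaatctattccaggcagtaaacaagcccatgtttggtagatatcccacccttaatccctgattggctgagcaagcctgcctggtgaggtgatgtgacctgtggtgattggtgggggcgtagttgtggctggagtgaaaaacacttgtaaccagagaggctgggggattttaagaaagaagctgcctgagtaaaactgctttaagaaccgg

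Of the 637 LTR regions, 211 lay in ERVL-MaLR elements, 207 in ERVK, 129 in ERVL and 73 in ERV1. The remaining 17 carried the labels Gypsy?, ERVK?, Gypsy, ERVL? or LTR, the question mark being part of the label. ERVL-MaLR elements (MLT1, MT and ORR1) are nonautonomous relatives of ERVL and mostly old. ERVK holds young mouse elements such as the IAPs along with older RMER and RLTR copies, and ERV1 holds relatives of the murine leukaemia viruses. There were 244 repeat names, 127 of them with 1 region, and the 12 most frequent names together held 156 regions. RMER17B led with 28 regions, followed by IAPEY4_LTR with 17, IAPLTR2_Mm with 15, MMERGLN-int and RMER15 with 13 each and ORR1F with 12. The others of the 12 were RMER19B (11), IAPEz-int, MLT1F1 and MTD (10 each), MLT1C (9) and MT2A (8).

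LTR regions lay mostly between genes. Of the 637, 418 (65.6%) were intergenic and 219 intronic, while 48.8% of the regions without a repeat, over 1 kb from a start site, were intergenic, as were 52.6% of LINE and 48.5% of SINE regions (other classes of mobile element). Their median distance to the nearest start site was 36846 bp, close to the 38862 bp of the distal regions without a repeat. They spread over all 20 chromosomes used, and 26 lay within 1 kb of a start site, 24 of these being RMER17B.

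Tags in LTR regions made up 1.11% and 1.36% of the nuclear region tags in Fgf13cko and 1.12% and 1.06% in controls. The groups overlapped, because Fgf13cko 1 lay below control 1. LTR regions were weak next to all regions, as were LINE regions. Over the 601 LTR regions with enough counts to test, the median count after TMM scaling (here "normalised count") was 33.5 and 46.1 in Fgf13cko and 38.4 and 36.2 in controls. Over all 28801 regions tested it was 66.9 and 70.5 in Fgf13cko and 63.1 and 62.1 in controls. LINE regions had 38.6 and 45.6 in Fgf13cko and 41.9 and 37.0 in controls. Distal regions without a repeat had 46.1 and 56.8 in Fgf13cko and 46.8 and 45.1 in controls. Fgf13cko 1 had the lowest and Fgf13cko 2 the highest of these LTR medians, so the 2 Fgf13cko libraries lay on either side of the controls. Across the 601 regions, log2 normalised counts correlated at r = 0.798 between the Fgf13cko libraries and 0.901 between the controls, as a description without a test. The same values were 0.847 and 0.929 over distal regions without a repeat, and 0.876 and 0.959 over all tested regions. More open LTRs in each cell and more cells with open LTRs cannot be told apart in these bulk libraries.

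Of the 601 LTR regions tested, 53 rose in Fgf13cko and 9 fell at an adjusted p under 0.05 in edgeR's quasi-likelihood test, adjusted over all regions. These are 8.82% and 1.5%, against a background of 6.2% rising and 1.64% falling among all 28801 regions. With scaling by library size alone, which put the all-region median at 0.97 on the log2 scale, 275 LTR regions rose and 2 fell. That is 45.8% rising, against 61.3% of all regions, so under this scaling the LTR share of rises was below the background. Distal regions without a repeat, which resemble LTR regions more in position and count, rose in 9.84% and fell in 2.26% of cases. The shares were 8.54% and 1.42% for LINE regions and 12.9% and 2.08% for SINE regions, so the LTR share of rises lay within the range of the other distal classes. The median log2 fold change was 0.09 over LTR regions, -0.00 over all regions and 0.10 over distal regions without a repeat.

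**Figure D1:**
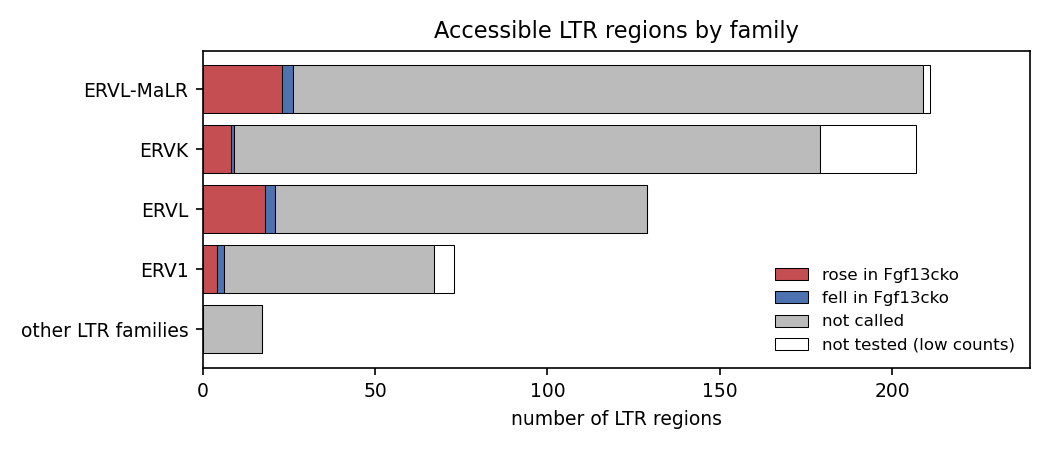
Number of LTR regions by family, one bar per family, divided into regions that rose in Fgf13cko, fell in Fgf13cko, were tested and not called, or were not tested for lack of counts. ERVL-MaLR and ERVL hold 41 of the 53 rises, and 28 of the 36 untested regions are ERVK.

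Both Fgf13cko libraries lay above both controls at 209 of the 601 regions (34.8%, against 28.5% of all regions) and below both at 133 (22.1%, against 25.2%). The 4 pairs of libraries did not share a direction. The median log2 ratio over LTR regions was -0.15 for Fgf13cko 1 over control 1 and -0.12 over control 2. It was 0.20 for Fgf13cko 2 over control 1 and 0.30 over control 2. By normalised count, LTR regions were thus on balance lower in one Fgf13cko culture and higher in the other, relative to either control. This split was not particular to LTRs. Distal regions without a repeat had -0.069 and -0.034 for Fgf13cko 1 and 0.207 and 0.275 for Fgf13cko 2. LINE regions had -0.078 and -0.065, then 0.161 and 0.270, while SINE regions were above 0 in all 4 pairs.

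**Figure D2:**
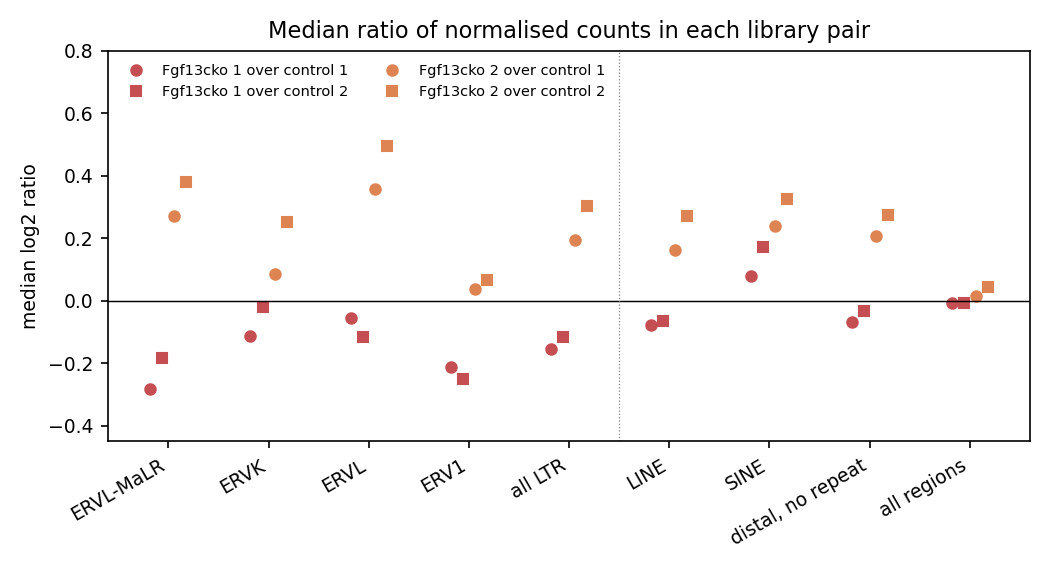
Median log2 ratio of normalised counts (vertical axis) in each of the 4 pairs of an Fgf13cko and a control library, for LTR families, all LTR regions and comparison classes. Pairs with Fgf13cko 2 lie above 0 in every class plotted, and pairs with Fgf13cko 1 lie below 0 in every class but SINE.

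The calls came from the stronger LTR regions. Among 115 regions with a mean normalised count under 25, edgeR called 0 (1 at an unadjusted p under 0.05), as did the DESeq2 Wald test and limma-voom, and the medians were 10.4 and 20.7 in Fgf13cko against 22.7 and 18.7 in controls. Of 262 regions between 25 and 50, 6 rose and 1 fell, or 2.29% and 0.38%, against 1.01% and 1.40% of distal regions without a repeat. Of 162 regions between 50 and 100, 31 rose and 7 fell, a rising share of 19.1% against 14.3% of distal regions without a repeat in the same range. Of the 62 regions at 100 or above, 16 rose and 1 fell, or 25.8% rising against 27.5% of the distal regions without a repeat. In the lowest range Fgf13cko 1 stood apart in distal regions without a repeat as well, with a median of 10.4 against 22.3 in Fgf13cko 2 and 24.1 and 20.0 in controls.

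By family, 18 of 129 ERVL regions rose and 3 fell, with a median log2 fold change of 0.19. Of 209 ERVL-MaLR regions tested, 23 rose and 3 fell, with a median of 0.07. ERVK had 8 rises and 1 fall among 179 tested and a median of 0.10, and ERV1 had 4 rises and 2 falls among 67 and a median of -0.11. For comparison, 6.2% of all regions rose and 1.64% fell, as did 9.84% and 2.26% of distal regions without a repeat. The rising share was above both backgrounds in ERVL and ERVL-MaLR, and below both in ERVK and ERV1. The 17 regions of the remaining labels had 0 calls, with 1 at an unadjusted p under 0.05 in edgeR, 0 in the DESeq2 Wald test and 1 in limma-voom. The families also differed in strength: the median of the mean normalised count was 44.1 in ERVL-MaLR, 40.9 in ERVL, 34.4 in ERV1 and 33.8 in ERVK. The part of this in their different shares of calls was not tested. Without control 1, ERVL-MaLR kept 4 calls, ERVL 6, ERVK 2 and ERV1 3. Without control 2 the counts were 2, 3, 0 and 2, with 17 ERVK regions at an unadjusted p under 0.05. Without Fgf13cko 2 the median log2 fold changes were -0.21 in ERVL-MaLR, -0.06 in ERVL, -0.10 in ERVK and -0.22 in ERV1, against -0.02 over all regions. With 1 library left out, the number of calls changed over the whole table too.

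How many of the 62 calls remained with 1 library left out differed by library. The spread was then measured only in the pair left whole. The controls were the more alike pair (r = 0.901 against 0.798 over LTR regions), so these counts cannot show which libraries the calls depended on more. The median log2 fold change over LTR regions was 0.16 without control 1 and 0.07 without control 2. It was 0.22 without Fgf13cko 1 and -0.13 without Fgf13cko 2. All 62 were called in the same direction without Fgf13cko 1 and again without Fgf13cko 2, while 15 were called without control 1 and 7 without control 2. In these fits the single remaining library of a group is assumed to vary like the other group. The total called was then 150 without Fgf13cko 1 (120 rises and 30 falls) and 260 without Fgf13cko 2 (114 rises and 146 falls). Over all regions the same fits gave 14.3% rising and 9.96% falling without Fgf13cko 1, and 17.7% and 17.3% without Fgf13cko 2. The increase in calls was thus found across the whole table, and the balance of rises and falls depended on which Fgf13cko library was kept. The 7 regions called whichever library was left out were 5 rises (LTR105_Mam near Gm4251, MTE2b near Kcnc1, MER68 near Usp12, ORR1E near LOC102634389 and RLTR30E_MM near 2010315B03Rik) and 2 falls (MuRRS-int near Gm8300 and LTR33A_ near Tab2).

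The largest rise was at an LTR105_Mam element, an ERVL repeat at chr14:71299474-71300326, 48627 bp from the start of the predicted gene Gm4251. Its normalised counts were 159 and 187 in Fgf13cko and 36.5 and 27.7 in controls, a log2 fold change of 2.45 (SE 0.24, adjusted p = 0.00384). Both Fgf13cko libraries lay far above both controls. Genes are named here as those with the nearest start site in the table, which does not make them targets of the element.

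The strongest changed region was an MTE2b repeat of the ERVL-MaLR family at chr7:46508945-46510445, in an intron of Sergef and 113227 bp from the start of Kcnc1, a voltage-gated potassium channel gene of fast-spiking neurons. Counts were 559 and 456 in Fgf13cko and 100.5 and 141 in controls, with a log2 fold change of 2.06 (SE 0.23, adjusted p = 0.00385). MTE2b was the repeat name with the most calls: 4 of its 8 regions rose and 0 fell. The other 3 rises were in an intron of the proteoglycan enzyme gene Xylt1 (65.2 and 137 in Fgf13cko, 37.9 and 33.6 in controls), in an intron of the potassium channel gene Kcnq5 (137 and 126 in Fgf13cko, 47.3 and 63.8 in controls) and upstream of the cell cycle gene Cks2 (99.2 and 99.2 in Fgf13cko, 51.7 and 54.0 in controls). The other 4 copies were not called, and 2 of them had fitted log2 fold changes below 0, down to -0.91 in Xkr4. Leaving out either control left 1 MTE2b call. Names with 2 called regions, all rises, were MLT1F1 (2 of 10), ORR1E (2 of 8), RMER15-int (2 of 7), LTR16A (2 of 4) and MER21C (2 of 4). These names were picked by their calls, and 6.2% of all regions rose.

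A MER68 element (ERVL) in an intron of Usp12, a gene for a deubiquitinating enzyme, at chr5:146750055-146750940, had counts of 213 and 178 in Fgf13cko and 40.4 and 53.6 in controls, a log2 fold change of 2.05. An MLT1H1 element (ERVL-MaLR) near Gm10440 followed, with 212 and 227 in Fgf13cko and 70.5 and 40.0 in controls (log2 fold change 2.00). At both, the lower Fgf13cko library had over 2 times the count of the higher control. A MER21C element 71070 bp upstream of Rpl38, a ribosomal protein gene, had 159 and 80.6 in Fgf13cko and 34.0 and 31.5 in controls, and an X-linked MTD-int element near Serpina7, the gene of thyroxine-binding globulin, had 67.5 and 89.1 in Fgf13cko and 20.7 and 24.7 in controls. Here the Fgf13cko libraries differed more between themselves and still did not overlap the controls.

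A MER21B element in an intron of Cdh4, the gene of the adhesion molecule R-cadherin, at chr2:179571011-179571846, had 279.7 and 254 in Fgf13cko and 83.3 and 77.0 in controls (log2 fold change 1.74, SE 0.19). An RLTR30 element (ERV1) 10596 bp upstream of Eif4e, which encodes the cap-binding translation factor, had 183 and 130.5 in Fgf13cko and 49.3 and 49.3 in controls. The controls coincided there and lay well below both Fgf13cko libraries. An ORR1E element in intron 3 of Ano6, a phospholipid scramblase gene, had 204 and 177 in Fgf13cko and 55.7 and 65.1 in controls, and an RLTR13E element (ERVK) near Fbxo5, an inhibitor of the anaphase-promoting complex, had 77.3 and 80.6 in Fgf13cko and 31.5 and 18.3 in controls. Both had a log2 fold change of 1.66.

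**Figure D3:**
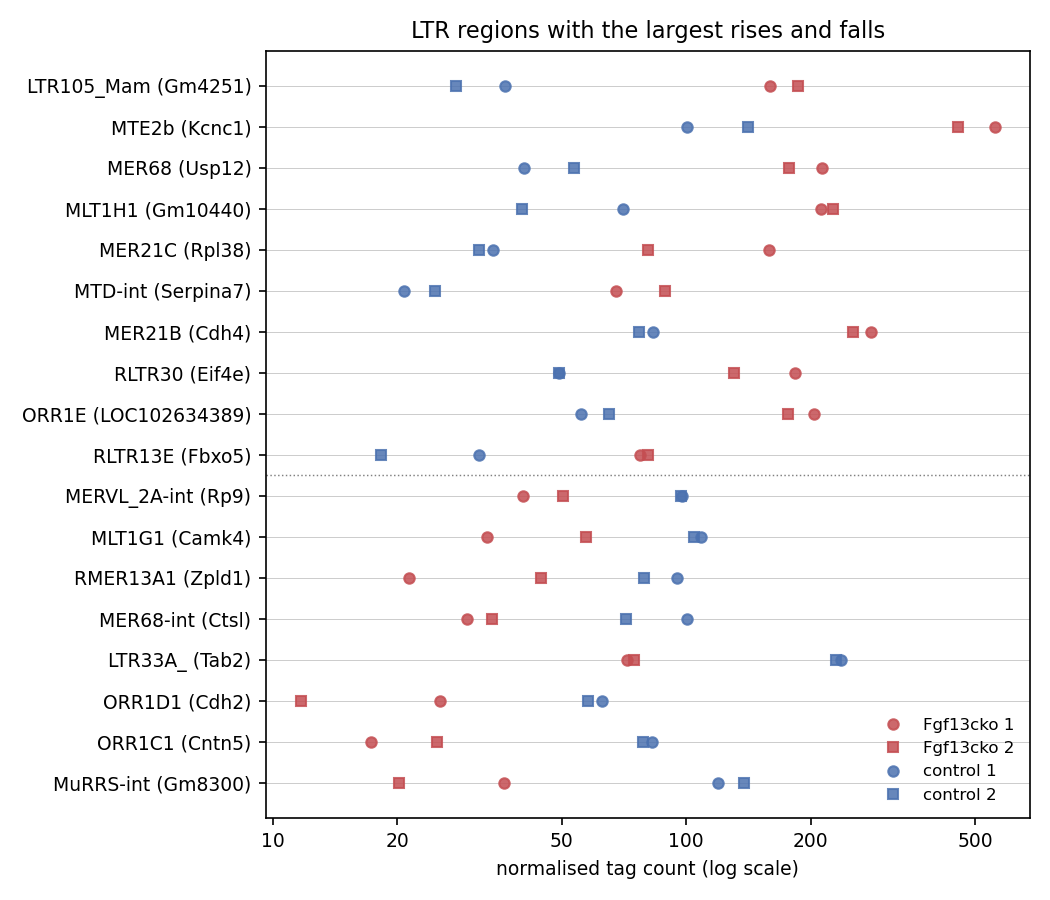
Normalised tag counts (horizontal axis, log scale) of the 10 LTR regions with the largest rises, above the dotted line, and 8 of the 9 that fell, below it, with the nearest gene in brackets. Points are single libraries, and at each of the 18 regions both Fgf13cko libraries lie on one side of both controls, which was part of the rule that chose them.

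The regions with the smallest p in the remaining families were an RLTR30E_MM element (ERV1) near 2010315B03Rik, with 150.5 and 163 in Fgf13cko and 47.8 and 57.0 in controls (log2 fold change 1.58), and an RLTR9A3B element (ERVK) on chromosome X, 285209 bp from H2afb1, with 114 and 91.8 in Fgf13cko and 45.3 and 35.3 in controls (1.33). Both were far above the controls in each Fgf13cko library. Of the 32 regions with a RefSeq promoter, 13 RMER17B regions were not tested, while 10 RMER17B regions and the 9 others were. Over all regions tested, 6.2% rose and 1.64% fell. Among the tested regions with a promoter, the only one called was the RLTR31D_MM region with the Gm41545 promoter printed above, at chr17:23924517-23925546. It had 234 and 210 in Fgf13cko and 136 and 134 in controls, a log2 fold change of 0.72 (adjusted p = 0.0468). The IAP1-MM_LTR region with Gm7967 had 54.8 and 46.7 in Fgf13cko and 44.8 and 45.9 in controls, and did not pass the test.

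Falls were fewer. A MuRRS-int element (ERV1) at chr12:87550220-87551342, near the predicted gene Gm8300, had 36.3 and 20.2 in Fgf13cko and 120 and 138 in controls, a log2 fold change of -2.18 (SE 0.30, adjusted p = 0.00564). An LTR33A_ element (ERVL) at chr10:8063413-8064198, 107682 bp upstream of Tab2, a signalling adaptor of the NF-kappaB pathway, had 72.1 and 74.8 in Fgf13cko and 237 and 230.1 in controls (-1.68). At each of the pair, the higher Fgf13cko library stayed below 1 in 3 of the lower control. An ORR1C1 element 528215 bp from Cntn5, a neural adhesion gene, had 17.3 and 24.9 in Fgf13cko and 82.8 and 78.7 in controls. Here too the groups lay far apart.

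A further 5 falls were ORR1D1 near the N-cadherin gene Cdh2 (log2 fold change -1.71), MER68-int near the cathepsin gene Ctsl (-1.42), RMER13A1 in an intron of Zpld1 (-1.40), MLT1G1 near the calcium-dependent kinase gene Camk4 (-1.24) and MERVL_2A-int in an intron of Rp9 (-1.09). MERVL is the element whose LTR is active in early mouse embryos. Its region here had 40.4 and 50.4 in Fgf13cko and 97.6 and 97.0 in controls. In the DESeq2 Wald test the adjusted p was 0.0508 for ORR1D1, 0.0534 for RMER13A1 and 0.0890 for MERVL_2A-int. In limma-voom it was 0.0622 for ORR1D1, so these 3 falls depended on the tool. Under 1 scaling most falls lost the call. With scaling by library size alone, where the totals include mitochondrial tags, all 53 rises but only 2 of the 9 falls kept the call. The 5 falls listed here lost it. All 9 falls kept the call with DESeq2 size factors in edgeR, with a loess offset and with mitochondrial regions left out. In these 3 fits 51, 50 and 49 of the 53 rises kept it.

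The most accessible LTR regions mostly did not pass the test. RLTR51A_Mm in Gm15413, with the highest mean, had 645 and 590 in Fgf13cko and 513 and 492 in controls (log2 fold change 0.30, SE 0.19, adjusted p = 0.408). LTR108c_Mam, MER68 in Camk1d, a calcium-dependent kinase gene, and LTR33 near Pla2g7, which encodes a lipoprotein-associated phospholipase, had log2 fold changes of 0.12, 0.31 and 0.09. ORR1D2 near the chaperone gene Dnajc3 had 134 and 258 in Fgf13cko and 302 and 267 in controls (-0.53, adjusted p = 0.317), so Fgf13cko 1 alone was far below the rest. Of the 8 with the highest mean, the MTE2b region above and an LTR16B region rose, the second with 296 and 260 in Fgf13cko and 151 and 137 in controls (0.95, adjusted p = 0.0181).

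Element groups differed in how many regions were called. LTR16, an old ERVL group, had 5 rises and 0 falls among 17 regions, both Fgf13cko libraries above both controls at 11, and a median log2 fold change of 0.73. These are 29.4% rising and 64.7% above both controls, against 6.2% and 28.5% of all regions. The DESeq2 Wald test called 2 of the 17, and edgeR called 1 without control 1 and 0 without control 2 (7 in each of these fits at an unadjusted p under 0.05). The rises were LTR16A in Fam185a (104 and 162 in Fgf13cko, 54.2 and 43.4 in controls) and near the cytokine receptor gene Lifr (118 and 166 in Fgf13cko, 58.6 and 81.7 in controls), LTR16D in Srgap2, a neuronal migration gene, LTR16C near Nhs and the LTR16B region above. MER21 and MER68, also ERVL, had 4 rises and 1 fall among 11 and a median of 0.72, with 2 rises left without control 1 and 1 without control 2. In both groups all 4 library pairs had a median ratio above 0, from 0.55 to 0.78 for LTR16 and from 0.25 to 0.93 for MER21 and MER68. These groups were formed and named after their values were seen, so they are descriptions.

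MT elements had 9 rises (14.75%) and 0 falls among 61, and RLTR elements 11 (12.5%) and 0 among 88. MLT1 had 8 rises (8.33%) and 1 fall among 96, and ORR1 6 (12.2%) and 2 among 49. Over all regions 6.2% rose and 1.64% fell, as did 9.84% and 2.26% of distal regions without a repeat. The median log2 fold changes of MT, RLTR, MLT1 and ORR1 were 0.13, 0.14, 0.17 and -0.13. Without Fgf13cko 2 the medians were 0.01 for MT, -0.06 for RLTR, -0.20 for MLT1 and -0.49 for ORR1, and without Fgf13cko 1 they were 0.35, 0.30, 0.33 and 0.06. The sign for RLTR, MLT1 and ORR1 thus depended on the Fgf13cko library kept. For LTR16 the median was 0.48 without Fgf13cko 2, and for MER21 and MER68 0.39.

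Several element groups had 0 calls, where 6.2% of all regions rose and 1.64% fell. IAP elements had 0 calls among 41 tested of 50 regions, with 4 at an unadjusted p under 0.05 in edgeR (2 of them higher). The DESeq2 Wald test and limma-voom also called 0 IAP regions. Their median normalised counts were 28.3 and 25.5 in Fgf13cko and 26.6 and 27.7 in controls, and the median log2 fold change was 0.10. The groups overlapped and the counts were low. Few distal regions without a repeat were called at such counts: 0% rose and 0.05% fell at a mean normalised count under 25. Between 25 and 50, 1.01% rose and 1.40% fell. RMER19, an ERVK group, had 0 calls among 23, with 4 at an unadjusted p under 0.05 and 0 calls in the other tools. Its medians were 15.0 and 32.9 in Fgf13cko and 35.5 and 30.6 in controls, so only Fgf13cko 1 was low. Without Fgf13cko 1 the median log2 fold change of RMER19 was -0.10, against -0.66 with all 4 libraries. MMERGLN elements, which are ERV1, had 0 calls among 9, with 0 at an unadjusted p under 0.05 and 0 calls in the other tools, and MT2 had 0 among 9, with 0 such p-values in edgeR and 0 calls in the other tools.

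RMER17B regions were clustered. Of the 28, 27 lay on chromosome 2 between 175141227 and 178078903, a span of 2.94 Mb that held 36 regions of the table in all, and the other lay near Asf1a on chromosome 10. At 24 of them the centre was 146 to 387 bp downstream of a start site, in intron 1 of a gene of the Zfp and Gm series. Many genes of this cluster encode KRAB zinc-finger proteins, a class that includes silencers of LTR elements. The promoters themselves thus lie beside an LTR copy.

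Of the 28 RMER17B regions, 16 were not tested because they held at most 1.5 tags in any library, and 10 held 0 tags in all 4. In the authors' peak lists the same 16 regions had fold enrichments between 4.57 and 9.30 and -log10 q between 5.08 and 25.3. The 12 tested regions, with up to 289.5 tags in a library, had fold enrichments between 4.10 and 10.5. The median fold enrichment of untested against tested regions was 7.13 and 7.31 in Fgf13cko 1, 6.44 and 6.63 in Fgf13cko 2, 7.31 and 8.73 in control 1 and 8.23 and 8.79 in control 2. It was thus lower in the untested regions in all 4 libraries. Median -log10 q of untested against tested regions was lower too, at 14.1 and 22.7 in Fgf13cko 1 and 10.4 and 17.9 in Fgf13cko 2. In control 1 it was 12.2 and 21.5, and in control 2 14.5 and 26.1. The lists thus held peaks where the count table held almost no tags, though weaker ones than where it held many. A count of 0 allows up to 3 tags in a library, for counting error only.

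**Figure D4:**
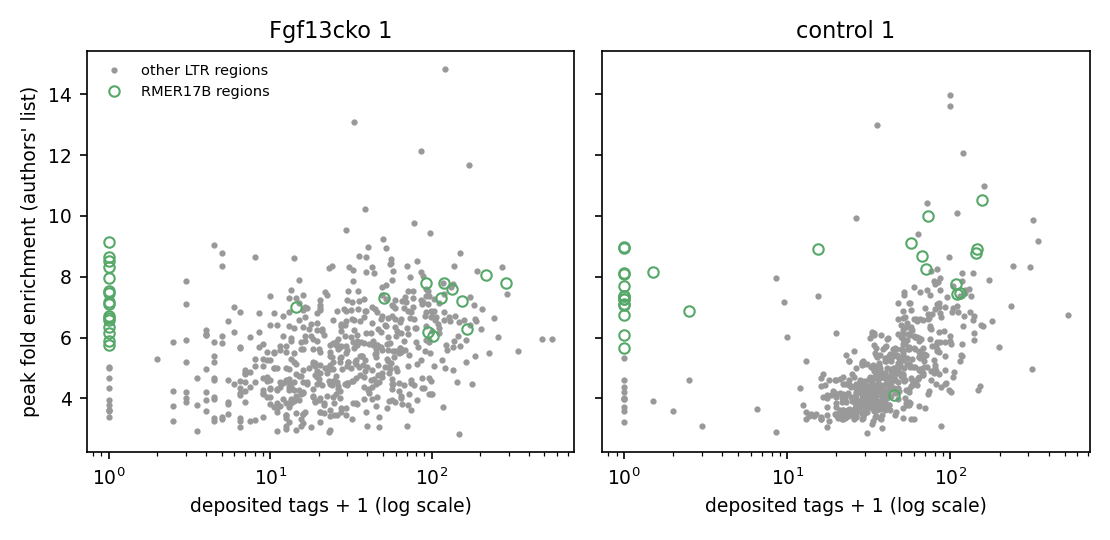
Peak fold enrichment from the authors' peak lists (vertical axis) against deposited tags plus 1 (horizontal axis, log scale) for each LTR region in Fgf13cko 1 (left) and control 1 (right), with RMER17B as open circles. Untested RMER17B regions stand at 0 to 1.5 tags with fold enrichments within the range of the other LTR regions.

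Repeated runs of sequence were common in both sets. Of the 251 runs of 50 bases in each promoter, between 46.2% and 100% occurred elsewhere among promoters for the 13 untested regions with a promoter (median 100%), and between 27.5% and 100% for the 10 tested ones (median 59.4%). Gm14440, with 0 tags in all libraries, had 99.6% repeated runs, and its promoter was identical to that of Gm14288 over the aligned bases. Gm14403 had 27.5% and 533 tags over the 4 libraries, and Zfp971 had 48.6% and 773 tags. The order was not strict: Zfp970 had 100% repeated runs with 329.5 tags, Gm14295 had 100% with 66.5 tags, and 2210418O10Rik had 46.2% with 0.5 tags. Whether reads that map to several copies were dropped in the count table and kept in the peak lists is not given in the sources used here, and the cause was not tested.

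**Figure D5:**
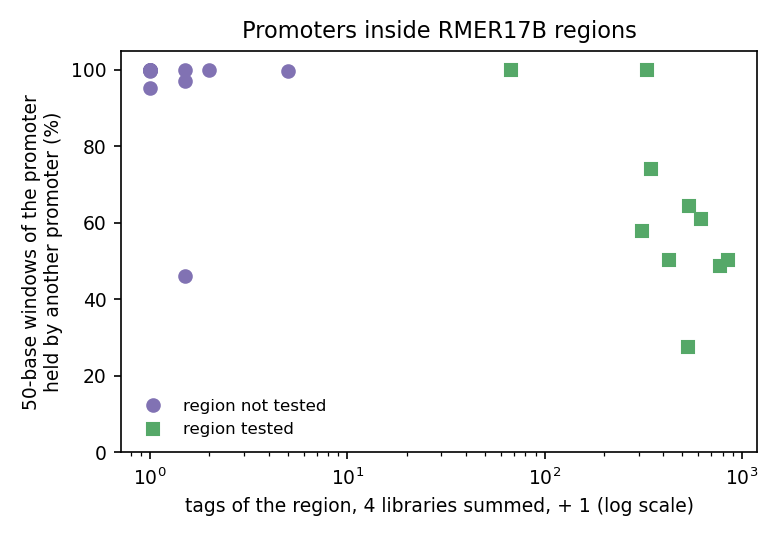
Share of 50-base windows of a promoter that occur at another place among RefSeq promoters (vertical axis, %) against the summed tags of its RMER17B region plus 1 (horizontal axis, log scale), for 13 untested and 10 tested regions. Untested regions sit at 4 tags or fewer and, but for 1, above 95%, while tested ones range from 27.5% to 100%.

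The promoters in RMER17B regions were alike in sequence. Whether the repeat reaches these windows was not determined, so the values describe the promoters. Pairwise identity of the promoters had a median of 97.3% among untested regions (78 pairs), 95.9% among tested ones (45 pairs) and 96.1% between the groups (130 pairs). The string AGGNGGC, which is part of the CTCF core motif, was in 23 of 23 RMER17B promoters and in 29.5% of all 32544 promoters. The other 9 motifs searched, on both strands, were in 0 of 23: AP-1 TGANTCA, CRE TGACGTCA, SOX ACAATG, homeobox TAATTA, octamer ATGCAAAT, E-box CAGCTG, NFI TTGGCA, RFX GTTGCCAT and TATA box TATAAA. In all promoters their shares were 7.79%, 1.80%, 12.4%, 5.29%, 1.75%, 16.4%, 14.1%, 1.35% and 13.6%. The 23 promoters share their ancestry, so they are in effect 1 sequence seen many times, and a match is not a binding site.

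Among the 12 tested RMER17B regions, edgeR called 0, with 2 at an unadjusted p under 0.05, both higher in Fgf13cko, and the DESeq2 Wald test and limma-voom also called 0. The median log2 fold change was 0.38, and both Fgf13cko libraries lay above both controls at 9 of 12 regions, against 28.5% of all regions. Median normalised counts were 134 and 100.2 in Fgf13cko and 88.2 and 87.8 in controls. At Gm14325, the strongest, they were 334 and 205 in Fgf13cko and 139 and 193 in controls (log2 fold change 0.69, adjusted p = 0.168), and the closest to the threshold was Zfp931, with a log2 fold change of 0.81 and an adjusted p of 0.0792. Because promoters in neighbouring RMER17B regions share runs of sequence, some tags may not be assignable to 1 region. How many was not tested.

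Peaks without tags were also found at other elements. Of the 82 regions in the table with 0 tags in all 4 libraries, 16 were LTR regions: 10 RMER17B, 3 MMERGLN-int, 2 IAPEz-int and 1 MT-int. Their fold enrichments in the authors' lists lay between 3.24 and 9.30. The 36 LTR regions not tested were 28 ERVK, 6 ERV1 and 2 ERVL-MaLR, and included 6 of 10 IAPEz-int regions and 5 of 13 MMERGLN-int regions. A statement on IAP, MMERGLN or RMER17B accessibility therefore covers the copies with tags only.

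A list of genes linked to the silencing of LTR elements, Tet1 and Tet2 included, was read at promoters. Every region of the table has a peak in all 4 libraries, so a promoter in it is open in both groups by construction. Of 40 listed genes, 37 had a promoter in the table, of which 2 rose and 1 fell (8 at an unadjusted p under 0.05, against 2236 of 11306 over all promoters), against 2.74% of all 11306 promoters called in either direction. The median log2 fold change was -0.02, against -0.01 over all promoters. Uhrf1, which brings the maintenance DNA methyltransferase to replicated DNA, had 178 and 183 in Fgf13cko and 95.8 and 104 in controls (log2 fold change 0.86, SE 0.17, adjusted p = 0.0225). Atrx, a chromatin remodeller that acts with Daxx at repeats, had 101 and 95.0 in Fgf13cko and 37.2 and 53.9 in controls (1.10, SE 0.24, adjusted p = 0.0358). Trim24, a relative of the KRAB corepressor Trim28, had 278 and 248 in Fgf13cko and 417 and 415 in controls (-0.66, SE 0.14, adjusted p = 0.0322).

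The groups did not overlap at any of the 3. Hdac1, a histone deacetylase, had 90.3 and 90.4 in Fgf13cko and 133 and 140.1 in controls (-0.60, adjusted p = 0.102). Fam208a, a subunit of the HUSH silencing complex, had a log2 fold change of -0.53 (adjusted p = 0.109), and Cbx5, which encodes heterochromatin protein 1 alpha, 0.40 (adjusted p = 0.123). None of these passed the test. The promoters of Trim28 and Dnmt1 had adjusted p-values of 0.620 and 0.836. The DESeq2 Wald test called 1 of the 37, a fall, and leaving out either control left 0 called in edgeR, with 4 at an unadjusted p under 0.05 each. In those 2 fits edgeR called 0 promoters of the whole table, with 858 and 850 at an unadjusted p under 0.05. An open promoter is not a measure of the gene's RNA.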

How the data were processed

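ATAC-seq of 2 Fgf13cko and 2 control libraries was used. The authors deposited estimated counts, raw HOMER tag counts for merged broad peaks on mm10 per the file headers, all of them multiples of 0.5. Tools listed in the submitters' processing notes are HOMER, MACS2, Bowtie2, DESeq2 and Picard. For versions, read shifting, duplicates and multi-mapping reads, the handling is not given in the sources used here. In the deposited peak lists, the fold enrichment (a ratio), -log10 q and score are the authors' own values, used to describe peaks and to filter regions.

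Counts were rounded and tested over the whole table with edgeR 4.0.16 in R 4.3.3 (TMM, filterByExpr, robust glmQLFit and glmQLFTest, two-sided, Benjamini-Hochberg threshold 0.05). DESeq2 1.42.0 and limma 3.58.1 were alternatives, and the fits were tested on simulated data. Library pair ratios used a pseudocount of 1. Normalised counts are counts over the TMM effective library size, scaled to the mean of the 4 libraries. Promoter counts summed regions within 1 kb of a start site. Named regions were up to 10 largest rises and falls with both Fgf13cko libraries on one side of the controls, the 8 highest means, the smallest p in each of 4 families, frequent or repeatedly called repeat names and the 6 silencing genes of smallest p, with other regions named as examples after their values were seen. A result at 1 LTR region that fell is not reported here. Members and lists were chosen with earlier results of these data known. No genome of the files' build was used, so sequences are RefSeq promoters (GRCm38.p6), compared with Biopython 1.88, and the motif search planned for region centres was run on these promoters instead. Intervals from counts cover counting error only.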

Additional observations from a re-analysis of the deposited data

Results flagged for a closer look

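The peak lists showed signal where the count table showed none. At 16 LTR regions all 4 libraries had 0 tags and all 4 lists had a peak, and the lowest fold enrichment at an untested RMER17B region was 4.57 (at most 1.5 tags in any library). The difference between the files' processing was not tested.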

How the results depend on the processing

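The count of changed LTR regions (62) stayed within 1.5 times under limma-voom (78), DESeq2 size factors in edgeR (63), a loess offset (82, with 20 falls), no filter (64), a mean of at least 50 counts (64), mitochondrial regions left out (59), peaks with -log10 q of at least 2 in all lists (48) and regions over 1 kb from a start site (62). It was 38 in the DESeq2 Wald test, all 38 also called by edgeR, and 277 with library size only, where the median log2 fold change was 1.07 and that of all regions 0.97. Leaving out 1 library gave 7 to 260, with medians from -0.13 without Fgf13cko 2 to 0.22 without Fgf13cko 1; without control 2, control 1 and Fgf13cko 1 the counts were 7, 15 and 150. Across the other settings the median ran from 0.04 to 0.34. Silencing promoters called (3) became 1 in the DESeq2 Wald test and 0 to 10 with 1 library left out. The shared replicate numbers are not said to pair the cultures: same-numbered deviations correlated at r = -0.211, and a replicate block gave 83 changed LTR regions (67 rises and 16 falls) and 3 silencing promoters. Of the 22 called regions that the naming rule chose, 3 lost the call in the Wald test, 1 in limma-voom, 7 with library size only, 11 without control 1 and 15 without control 2, and 3 were not tested at a mean of at least 50 counts. With 2 libraries a group and few tags at weak regions, an uncalled region may still differ.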
